A study of Homo sapiens with 18 samples.

Results

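Polycomb repressive complex 2 (PRC2) deposits methylation on lysine 27 of histone H3 and so helps to keep genes silent. Its catalytic subunit is EZH2 or the paralog EZH1, which work only together with SUZ12 and EED. The histone chaperones RBBP4 and RBBP7 complete the core, and accessory subunits guide the complex to chromatin: PHF19 and MTF2 are Polycomb-like proteins, whereas JARID2 and AEBP2 belong to a separate form of the complex. EZH2 is abundant in dividing cells and in advanced prostate cancer, while EZH1 is typical of cells that have stopped dividing.

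The 10 genes examined here, EZH2, EZH1, SUZ12, EED, RBBP4, RBBP7, JARID2, AEBP2, PHF19, and MTF2, were chosen by name as PRC2 core and accessory genes, out of 22034 genes in the count table. No measured value was a criterion of that choice, but earlier results of these data were known when it was made. All 10 passed the filter on low counts. RNA-seq was performed on 18 libraries of VCaP, a metastatic prostate cancer line that carries the TMPRSS2:ERG fusion and so expresses the transcription factor ERG, and the question was which genes respond when ERG is lost or its inhibitor is given. VCaP-shERG cells, which carry a doxycycline-inducible pLKO-Tet-on hairpin against ERG, received vehicle (labelled DMSO) or doxycycline (Dox) at 1 µg/mL for a time the labels do not give. Parental VCaP cells received DMSO, at no stated time, or 50 µM PBITE-1, a small molecule that binds the PNT domain of ERG, for 4, 8, or 12 h. There were 3 libraries in every group and 6 groups, and the 3 times of PBITE-1 shared the same DMSO libraries. No group with Dox but without the ERG hairpin was analysed here, so an effect of Dox itself cannot be told apart from that of the hairpin.

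Totals were between 11308600 and 17483423 counts per library. ERG, the target of the hairpin, had 406.5 to 430.9 CPM with vehicle and 149.5 to 156.7 CPM with Dox (log2 fold change -1.44, SE 0.04, adjusted p = 3.3e-22, limma-voom). Parental cells had 294.3 to 311.8 CPM of ERG with DMSO, and 90.46 to 103.9 CPM after 12 h of PBITE-1 (log2 fold change -1.58, SE 0.05, adjusted p = 7.5e-28, limma-voom). The 9 luminal prostate markers had a summed level of 6503 to 6647 CPM with DMSO and 2667 to 2987 CPM at 12 h, and of 9078 to 9283 CPM with vehicle and 5281 to 5492 CPM with Dox. The highest summed level in any library was 2.9 CPM for 5 leukocyte markers, 2.11 CPM for 3 endothelial markers, 7.49 CPM for 5 fibroblast markers, and 6.15 CPM for the basal markers KRT14 and TP63. The part of the luminal decline in the results below was not tested. In bulk RNA, fewer cells of a kind and less RNA per cell cannot be told apart.

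The promoters of EZH2, EZH1, PHF19, and RBBP7 are shown because the largest responses below belong to EZH2, PHF19, and RBBP7, and because EZH1 rose with Dox while EZH2 fell. The windows were taken from RefSeq (GRCh38.p14), run 5′ to 3′ on the strand of the gene from 250 bases before its start to 50 bases after it, and are 300 bases long. Capitals mark matches to the letters searched on both strands: GCGGGAA for E2F, CCGGAAG or AGGAAGT for ETS factors such as ERG, CACGTG for the E-box, CCAAT for the CCAAT box, and TTTGAA for the cell-cycle element CHR. The matches overlapped no other motif, although an ETS match and a CCAAT match are adjacent in PHF19 and read there as 1 run of capitals.
EZH2, minus strand, chr7:148884242-148884541: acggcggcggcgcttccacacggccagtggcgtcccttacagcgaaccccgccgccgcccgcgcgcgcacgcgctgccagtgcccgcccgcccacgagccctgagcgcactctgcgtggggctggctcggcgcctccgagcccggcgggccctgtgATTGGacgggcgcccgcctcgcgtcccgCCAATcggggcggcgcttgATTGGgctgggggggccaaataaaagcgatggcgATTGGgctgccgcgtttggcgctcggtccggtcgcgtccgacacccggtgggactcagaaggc
EZH1, minus strand, chr17:42744991-42745290: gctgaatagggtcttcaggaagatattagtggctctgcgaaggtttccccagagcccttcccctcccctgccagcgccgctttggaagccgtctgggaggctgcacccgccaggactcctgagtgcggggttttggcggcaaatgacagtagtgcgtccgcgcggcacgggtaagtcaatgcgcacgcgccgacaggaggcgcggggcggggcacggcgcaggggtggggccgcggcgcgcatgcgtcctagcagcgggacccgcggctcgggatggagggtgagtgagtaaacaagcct
PHF19, minus strand, chr9:120868862-120869161: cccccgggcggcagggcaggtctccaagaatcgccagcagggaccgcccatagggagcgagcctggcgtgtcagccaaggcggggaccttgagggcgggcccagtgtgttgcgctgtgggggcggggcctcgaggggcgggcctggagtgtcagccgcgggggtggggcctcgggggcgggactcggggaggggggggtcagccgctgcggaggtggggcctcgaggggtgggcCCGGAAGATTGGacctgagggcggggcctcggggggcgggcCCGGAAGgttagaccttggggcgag
RBBP7, minus strand, chrX:16870313-16870612: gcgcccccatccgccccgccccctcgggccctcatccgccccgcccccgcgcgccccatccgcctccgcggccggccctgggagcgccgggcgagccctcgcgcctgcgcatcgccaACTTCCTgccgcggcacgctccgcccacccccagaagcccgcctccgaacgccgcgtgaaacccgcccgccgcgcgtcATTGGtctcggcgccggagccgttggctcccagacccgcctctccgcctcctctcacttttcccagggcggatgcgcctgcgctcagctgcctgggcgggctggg
The EZH2 window held 4 matches to the CCAAT box, and 0.991% of the 35116 windows in the RefSeq table held at least as many. PHF19 held 2 ETS matches and RBBP7 held 1, and 2.94% of all windows held at least 2. At least 1 ETS match was found in 17.6% of all windows, an E2F match in 6.55%, an E-box in 7.26%, a CCAAT box in 34.6%, and a CHR in 15.2%. Among the other members, SUZ12 held an E2F, a CCAAT, and a CHR match, MTF2 held an E2F match, and RBBP4 held an E-box and 2 CCAAT matches. PHF19, RBBP7, EED, and JARID2 held 1 CCAAT match each, and EZH1 and AEBP2 held no match. A match describes the letters only, and the absence of one says nothing about the factor. The PHF19 window lies within the longer gene model of GENCODE 29, which spans chr9:120855652-120894896. The same holds for AEBP2, whose window, chr12:19440349-19440648, lies within a model that spans chr12:19404045-19720801.

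Compared per length of exon, the core genes SUZ12, RBBP4, and RBBP7 had the highest levels with DMSO, at 56.6 ± 1.2, 37.6 ± 0.91, and 29.1 ± 1.0 CPM per kb (SD, n = 3). EZH2 followed with 19.3 ± 1.3 CPM per kb, and then PHF19 with 9.99 ± 0.26 CPM per kb. AEBP2 at 7.12 ± 0.22 and MTF2 at 6.83 ± 0.64 CPM per kb did not differ beyond their spread. EED had 5.28 ± 0.45, JARID2 3.94 ± 0.54, and EZH1 1.41 ± 0.14 CPM per kb, the lowest of the 10. The order depended on the gene model: with the longest transcript in place of all exons, RBBP7 stood at 53.4 and RBBP4 at 44.8 CPM per kb, and EED, at 13.4 CPM per kb, stood above AEBP2 and MTF2. All levels below are CPM not divided by length, and are compared only within a gene.

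After ERG knockdown, EZH2 and PHF19 had the largest declines of the 10 genes, the core genes SUZ12, EED, RBBP4, and RBBP7 fell less, and EZH1 rose. Of the 10 genes, 6 passed the test as lower, 1 as higher, and 3 did not pass. Across all 14164 genes tested, 35.3% were lower and 35.1% were higher at an adjusted p under 0.05 (limma-voom), so the response was broad. Below a log2 fold change of -1 were 2 members, EZH2 and PHF19, and 7.19% of all genes. The median log2 fold change was -0.46 over the 10 members and 0.02 over all genes.

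**Figure D1:**
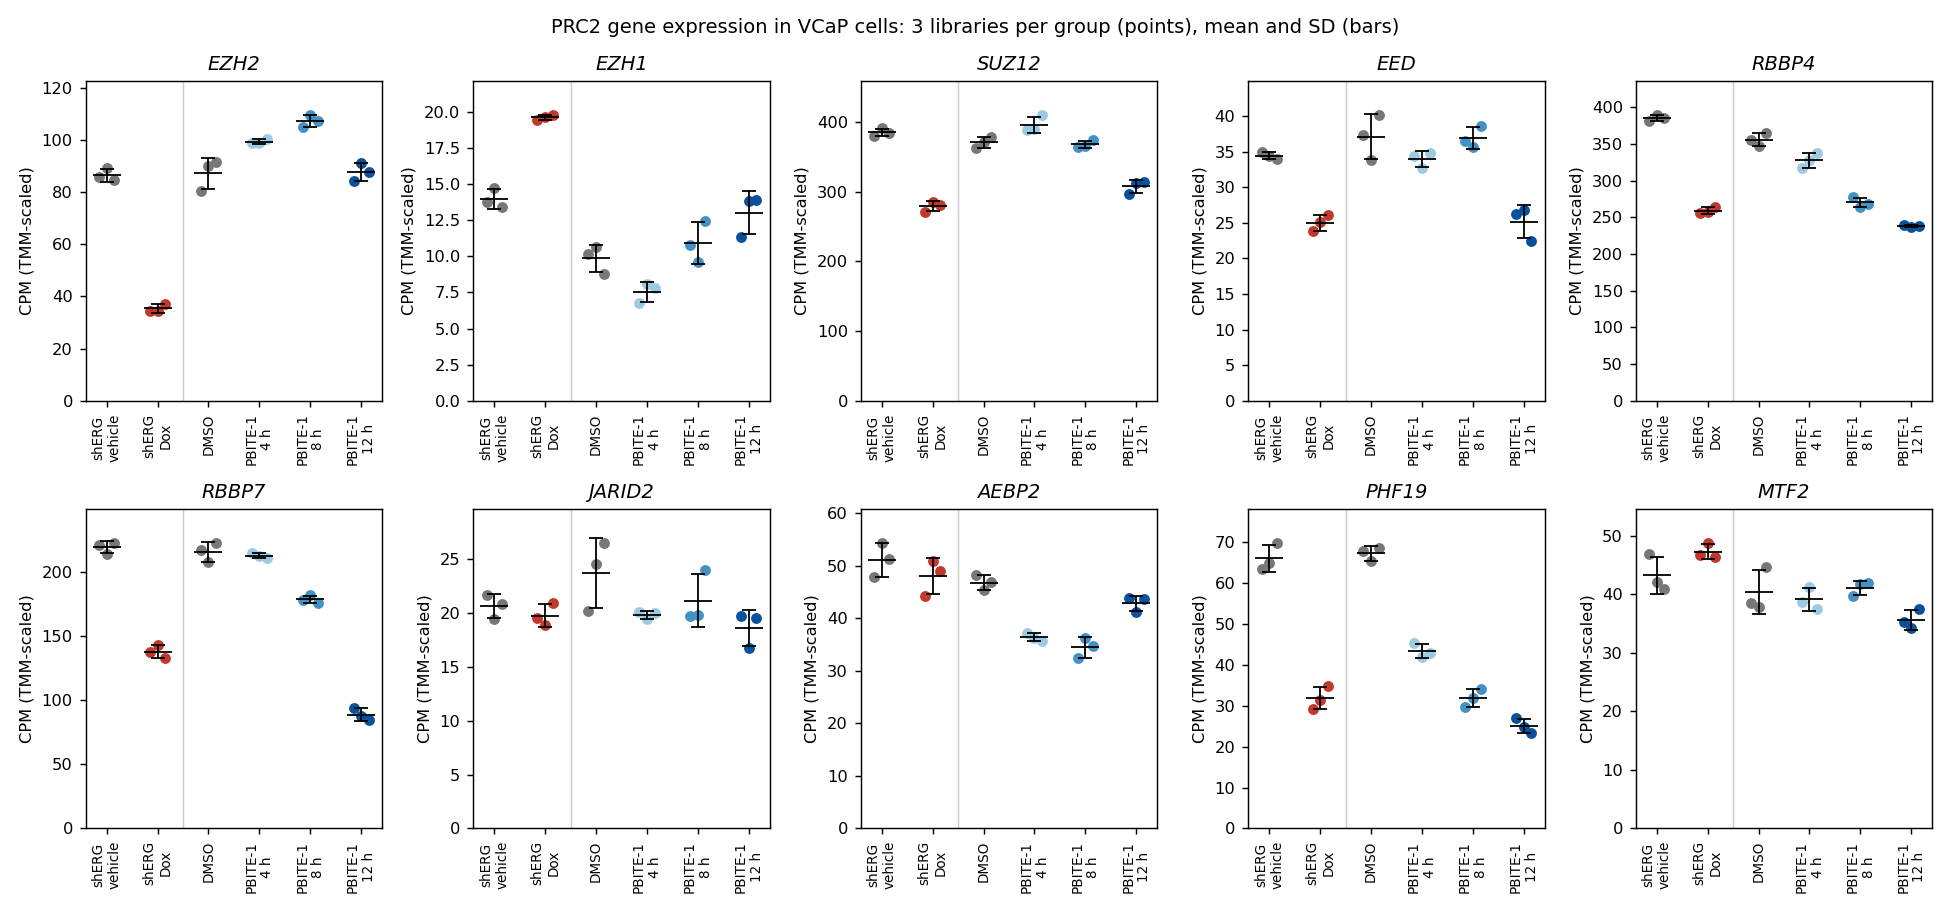
Levels of the 10 PRC2 genes in the 6 groups (x axis) in TMM-scaled CPM (y axis, each gene on its own scale from 0). Points are libraries, and bars give the mean and SD of 3. EZH2 with Dox lies between 34.45 and 37.18 CPM, below every other library, while PHF19 and RBBP7 are lowest at 12 h of PBITE-1.

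EZH2, on chromosome 7, had 85.87, 89.21, and 84.51 CPM with vehicle. With Dox it had 34.45, 34.57, and 37.18 CPM, and the ranges of the groups did not overlap. It fell by 1.29 on the log2 scale (SE 0.06, adjusted p = 1.1e-16, limma-voom). With DMSO alone, parental cells had 80.5, 89.91, and 91.6 CPM, a range that overlaps that of the vehicle libraries.

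With PBITE-1, EZH2 was higher at the earlier times and within the range of DMSO at 12 h. At 4 h its levels were 98.86, 98.96, and 100.5 CPM, and at 8 h 104.9, 109.5, and 107.3 CPM, in both cases above all DMSO libraries. These were log2 fold changes of 0.21 (SE 0.05, adjusted p = 0.001) and 0.32 (SE 0.05, adjusted p = 6.5e-07, limma-voom). At 12 h the levels were 84.21, 91.06, and 87.59 CPM, which all lie between the lowest and the highest DMSO library. The difference was 0.04 on the log2 scale (95% confidence interval -0.06 to 0.15, adjusted p = 0.43, limma-voom), and it was -0.011 without the first DMSO library. The interval excludes a decline of the size seen with Dox. From 4 to 12 h, EZH2 fell by 0.16 (SE 0.05, adjusted p = 0.0067, limma-voom).

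The response of EZH2 at 12 h of PBITE-1 and that to Dox were compared directly in a fit of all 18 libraries. The response to PBITE-1 was higher by 1.30 on the log2 scale (95% confidence interval 1.14 to 1.46, adjusted p = 6.3e-19, limma-voom). ERG itself differed by -0.17 between the responses (SE 0.06, adjusted p = 0.01, limma-voom), with the lower value under PBITE-1. The treatments differ in agent, in line, and possibly in time, which cannot be told apart here.

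EZH1, the paralog of EZH2 with weaker catalytic activity, is on chromosome 17. It had 13.77, 14.73, and 13.42 CPM with vehicle and 19.43, 19.65, and 19.76 CPM with Dox, without overlap. This was a log2 fold change of 0.48 (SE 0.09, adjusted p = 5.3e-05, limma-voom). Its counts were low, and its errors were among the larger ones.

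In parental cells EZH1 had 10.15, 10.63, and 8.79 CPM with DMSO, 6.74, 8.08, and 7.81 CPM at 4 h, and 10.77, 9.57, and 12.43 CPM at 8 h. At 12 h it had 11.33, 13.84, and 13.91 CPM, all above DMSO (log2 fold change 0.45, SE 0.12, adjusted p = 0.0011, limma-voom). The 4 h libraries were below all DMSO libraries, but the difference of -0.35 (SE 0.15, adjusted p = 0.042) lost the call without any of 5 of the 6 libraries compared, DMSO replicates 1 and 2 and every 4 h replicate, with values from -0.40 to -0.28 and adjusted p from 0.054 to 0.16. At 8 h the ranges overlapped (log2 fold change 0.16, adjusted p = 0.26, limma-voom). From 4 to 12 h, EZH1 rose by 0.80 (SE 0.14, adjusted p = 4.3e-06, limma-voom).

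The ratio of EZH2 to EZH1 counts within a library does not depend on the scaling between libraries. With vehicle it was 6.2 ± 0.13, and with Dox 1.8 ± 0.067 (SD, n = 3). This is a difference of -1.78 on the log2 scale, with no overlap (p = 0.1 by a two-sided exact permutation test, which cannot go lower with 3 libraries against 3). With DMSO the ratio was 8.94 ± 1.3. After 4 h of PBITE-1 it was 13.3 ± 1.3, after 8 h it was 9.94 ± 1.4, and after 12 h it was 6.77 ± 0.59. The groups did not overlap with DMSO at 4 and 12 h (exact permutation p = 0.1 each), and they overlapped at 8 h (exact permutation p = 0.4). Over the 12 ratio tests made, no adjusted p was below 0.12.

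**Figure D2:**
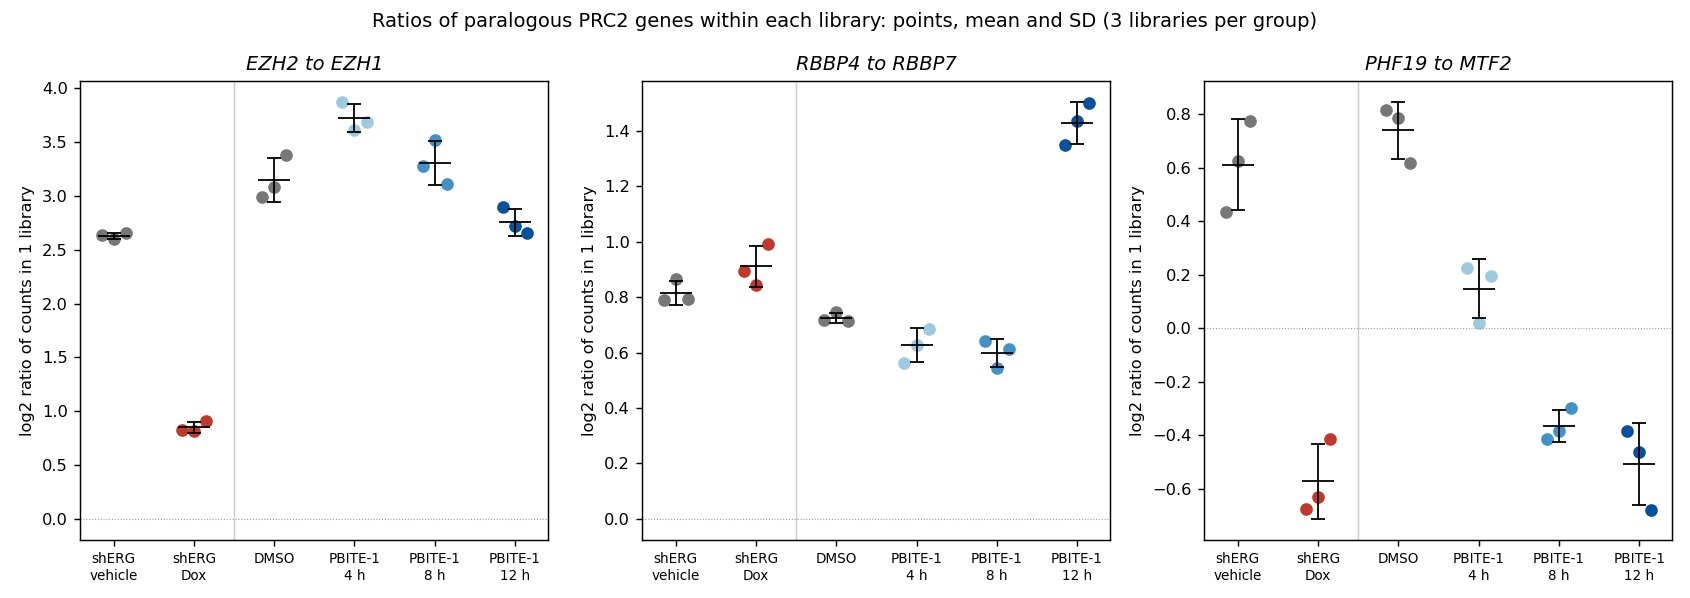
Log2 ratios of counts of paired PRC2 genes within each library (y axis) in the 6 groups (x axis). Points are libraries, and bars give the mean and SD of 3. The EZH2 to EZH1 ratio is lowest with Dox, the RBBP4 to RBBP7 ratio is highest at 12 h of PBITE-1, and the PHF19 to MTF2 ratio is below 0 with Dox and at 8 and 12 h.

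SUZ12, which holds the complex together, had 379.7, 390.9, and 383.7 CPM with vehicle and 270.7, 285.4, and 281.1 CPM with Dox. It fell by 0.47 (SE 0.03, adjusted p = 2.8e-13, limma-voom), without overlap. With DMSO it had 362.5 to 378 CPM, at 4 h 388.4 to 409.4 CPM, at 8 h 364.4 to 373.8 CPM, and at 12 h 296.3 to 313.6 CPM. SUZ12 thus rose by 0.12 at 4 h (SE 0.04, adjusted p = 0.007), overlapped with DMSO at 8 h (log2 fold change 0.02, adjusted p = 0.70), and fell by 0.23 at 12 h (SE 0.04, adjusted p = 5.3e-07, limma-voom). The call at 4 h was lost without the third 4 h library (0.09, adjusted p = 0.061) and with scaling by library size only (0.07, adjusted p = 0.10). SUZ12P1, a transcribed copy of part of the gene on chromosome 17, had 38.8 ± 1.9 CPM with DMSO and 16.6 ± 2.3 CPM at 12 h. It had 32.4 ± 4.0 CPM with vehicle and 34.9 ± 4.4 CPM with Dox. How reads that match both were assigned is not known, so the SUZ12 values are uncertain to an extent that these levels do not give.

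EED, which binds methylated H3K27 and stimulates the enzyme, had 33.93 to 34.92 CPM with vehicle and 23.85 to 26.1 CPM with Dox (log2 fold change -0.46, SE 0.07, adjusted p = 2.8e-06, limma-voom). With DMSO it had 33.81 to 40.12 CPM, which overlapped with both 4 h (32.68 to 34.77 CPM, adjusted p = 0.26) and 8 h (35.66 to 38.68 CPM, adjusted p = 0.85, limma-voom). At 12 h it had 22.52 to 26.74 CPM, below all DMSO libraries, and fell by 0.52 (SE 0.08, adjusted p = 2.9e-07, limma-voom).

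The histone chaperones RBBP4 and RBBP7 are shared with other complexes, and both fell in each experiment. RBBP4 had 381.9, 389.2, and 384.9 CPM with vehicle and 255.4, 257.1, and 264.6 CPM with Dox (log2 fold change -0.58, SE 0.03, adjusted p = 2.1e-15, limma-voom). RBBP7 had 221, 213.6, and 222.3 CPM with vehicle and 137.3, 143.2, and 133 CPM with Dox (log2 fold change -0.67, SE 0.04, adjusted p = 1.7e-14, limma-voom). Neither gene overlapped between these groups.

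With PBITE-1, RBBP4 declined from 4 h on, whereas most of the decline of RBBP7 came between 8 and 12 h. RBBP4 had 347.3 to 364.6 CPM with DMSO, 316.7 to 338.3 CPM at 4 h, 264.6 to 277.6 CPM at 8 h, and 236.9 to 239.7 CPM at 12 h. Its log2 fold changes were -0.10 (SE 0.04, adjusted p = 0.024) at 4 h, -0.37 (SE 0.04, adjusted p = 2.4e-11) at 8 h, and -0.54 (SE 0.04, adjusted p = 4.6e-16, limma-voom) at 12 h. Only the 4 h call was lost when 1 library was left out: without DMSO replicate 3, or 4 h replicate 1 or 2, it was -0.10 to -0.08 (adjusted p = 0.055 to 0.12).

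RBBP7, on chromosome X, had 216.9, 207.3, and 222.2 CPM with DMSO and 214.3, 212.3, and 210.3 CPM at 4 h, which overlapped (95% confidence interval of the log2 fold change -0.09 to 0.08). At 8 h it had 177.8, 181.7, and 175.9 CPM, a log2 fold change of -0.24 (SE 0.04, adjusted p = 3.2e-06, limma-voom). At 12 h it had 94.18, 87.59, and 84.14 CPM, a log2 fold change of -1.24 (SE 0.05, adjusted p = 1.5e-24, limma-voom). The 12 h libraries were the lowest of all 18. Its response at 12 h was lower than that to Dox by 0.62 on the log2 scale (coded as PBITE-1 minus Dox: -0.62, SE 0.06, adjusted p = 3.3e-12, limma-voom). For RBBP4, that difference was -0.01 (95% confidence interval -0.11 to 0.09, adjusted p = 0.92, limma-voom). It passed as lower with upper-quartile scaling (-0.13, adjusted p = 0.016) and with library size only (-0.27, adjusted p = 4.5e-06).

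The exons of RBBP7 overlap those of TXLNG on the opposite strand, and the use of strand in counting is not given in the sources used here. TXLNG had 64.5 ± 2.1 CPM with DMSO, 76.6 ± 2.8 at 4 h, 79.4 ± 6.6 at 8 h, and 54.8 ± 1.8 CPM at 12 h, and 83.5 ± 2.8 CPM with vehicle against 44.6 ± 3.6 CPM with Dox. SYNC, which overlaps RBBP4 in the same way, stayed at or below 3.13 CPM in every library. The RBBP4 to RBBP7 count ratio was 1.65 ± 0.02 with DMSO (SD, n = 3). After 4 h of PBITE-1 it was 1.54 ± 0.065, after 8 h 1.52 ± 0.053, and after 12 h 2.69 ± 0.14 (exact permutation p = 0.1 for each time, the smallest possible). It was 1.76 ± 0.054 with vehicle and 1.88 ± 0.099 with Dox, with overlap (exact permutation p = 0.2).

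Among the accessory genes, PHF19 fell in every treatment, and its paralog MTF2 passed against its control in none, although other settings given below made it pass with Dox and at 12 h. Both are Polycomb-like proteins that help bring PRC2 to CpG islands. PHF19, on chromosome 9, had 63.31, 64.93, and 69.76 CPM with vehicle and 29.28, 31.51, and 34.78 CPM with Dox. It fell by 1.06 on the log2 scale (SE 0.07, adjusted p = 1.6e-13, limma-voom), without overlap.

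With DMSO, PHF19 had 67.8, 65.25, and 68.64 CPM. It had 45.29, 41.82, and 42.89 CPM at 4 h, 29.79, 31.97, and 34.07 CPM at 8 h, and 26.96, 24.87, and 23.41 CPM at 12 h, and no 2 of these 4 groups overlapped. The log2 fold changes were -0.61 (SE 0.06, adjusted p = 1.1e-10), -1.06 (SE 0.07, adjusted p = 3.5e-17), and -1.39 (SE 0.07, adjusted p = 3.1e-20, limma-voom). From 4 to 12 h it fell by 0.77 (SE 0.08, adjusted p = 2.3e-11, limma-voom). Its response at 12 h was lower than that to Dox (PBITE-1 minus Dox: -0.37, SE 0.10, adjusted p = 0.00096, limma-voom).

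MTF2 had 40.82 to 46.82 CPM with vehicle and 46.3 to 48.76 CPM with Dox (log2 fold change 0.13, 95% confidence interval 0.0025 to 0.26, adjusted p = 0.064, limma-voom). It passed as higher without vehicle replicate 1 (0.19, adjusted p = 0.017), with upper-quartile scaling (0.29, adjusted p = 0.00019), with library size only (0.39, adjusted p = 3.8e-06), and with at least 10 counts in every sample (0.18, adjusted p = 0.011). With PBITE-1 its log2 fold changes were -0.02, 0.05, and -0.14 (adjusted p = 0.81, 0.54, and 0.072, limma-voom). The last passed without DMSO replicate 1 or 2 (-0.17 and -0.19, adjusted p = 0.044 and 0.028), with library size only (-0.18, adjusted p = 0.021), and in a fit of all 18 libraries (-0.18, adjusted p = 0.018). The responses to PBITE-1 at 12 h and to Dox differed by -0.32 (SE 0.10, adjusted p = 0.0039, limma-voom). The PHF19 to MTF2 ratio was 1.54 ± 0.18 with vehicle and 0.675 ± 0.067 with Dox, and 1.67 ± 0.12 with DMSO, 1.11 ± 0.083 at 4 h, 0.777 ± 0.033 at 8 h, and 0.706 ± 0.073 at 12 h. None of the treated groups overlapped with its control (exact permutation p = 0.1 each).

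JARID2 and AEBP2 had small differences. With vehicle and with Dox, JARID2 had 19.41 to 21.62 and 18.85 to 20.92 CPM (log2 fold change -0.06, adjusted p = 0.57), and AEBP2 had 47.91 to 54.37 and 44.23 to 51.02 CPM (-0.10, adjusted p = 0.17, limma-voom). Both signs turned with upper-quartile scaling, and with library size only both genes passed as higher (JARID2 0.20, adjusted p = 0.037, and AEBP2 0.16, adjusted p = 0.029). AEBP2 fell by 0.34 at 4 h (SE 0.07, adjusted p = 4.8e-05) and by 0.42 at 8 h (SE 0.07, adjusted p = 6.1e-07), from 45.34 to 48.19 CPM with DMSO to 35.76 to 37.19 and 32.44 to 36.29 CPM. At 12 h it had 41.19 to 43.81 CPM (-0.09, 95% confidence interval -0.21 to 0.04, adjusted p = 0.20, limma-voom), and it rose by 0.25 from 4 to 12 h (SE 0.07, adjusted p = 0.0014, limma-voom).

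JARID2 ranged from 20.16 to 26.49 CPM with DMSO. The 4 h libraries had 19.43 to 20.04 CPM, the 8 h libraries 19.68 to 23.94 CPM, and the 12 h libraries 16.71 to 19.71 CPM. It passed as lower at 12 h (-0.31, SE 0.10, adjusted p = 0.0045, limma-voom), but not without DMSO replicate 3 (-0.23, adjusted p = 0.056). At 4 h (-0.24, adjusted p = 0.048) the call was lost in 8 of 12 fits that left out a library, namely those without any 4 h replicate, DMSO replicate 2 or 3, 8 h replicate 1 or 2, or 12 h replicate 3 (-0.25 to -0.15, adjusted p = 0.051 to 0.27). It was also lost with DESeq2, RLE scaling, no filter, and at least 10 counts in every sample (adjusted p = 0.075, 0.052, 0.13, and 0.058). At 8 h it did not pass (-0.16, adjusted p = 0.13), but did so without DMSO replicate 1 or 8 h replicate 3 (-0.27 and -0.24, adjusted p = 0.013 and 0.044, limma-voom).

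**Figure D3:**
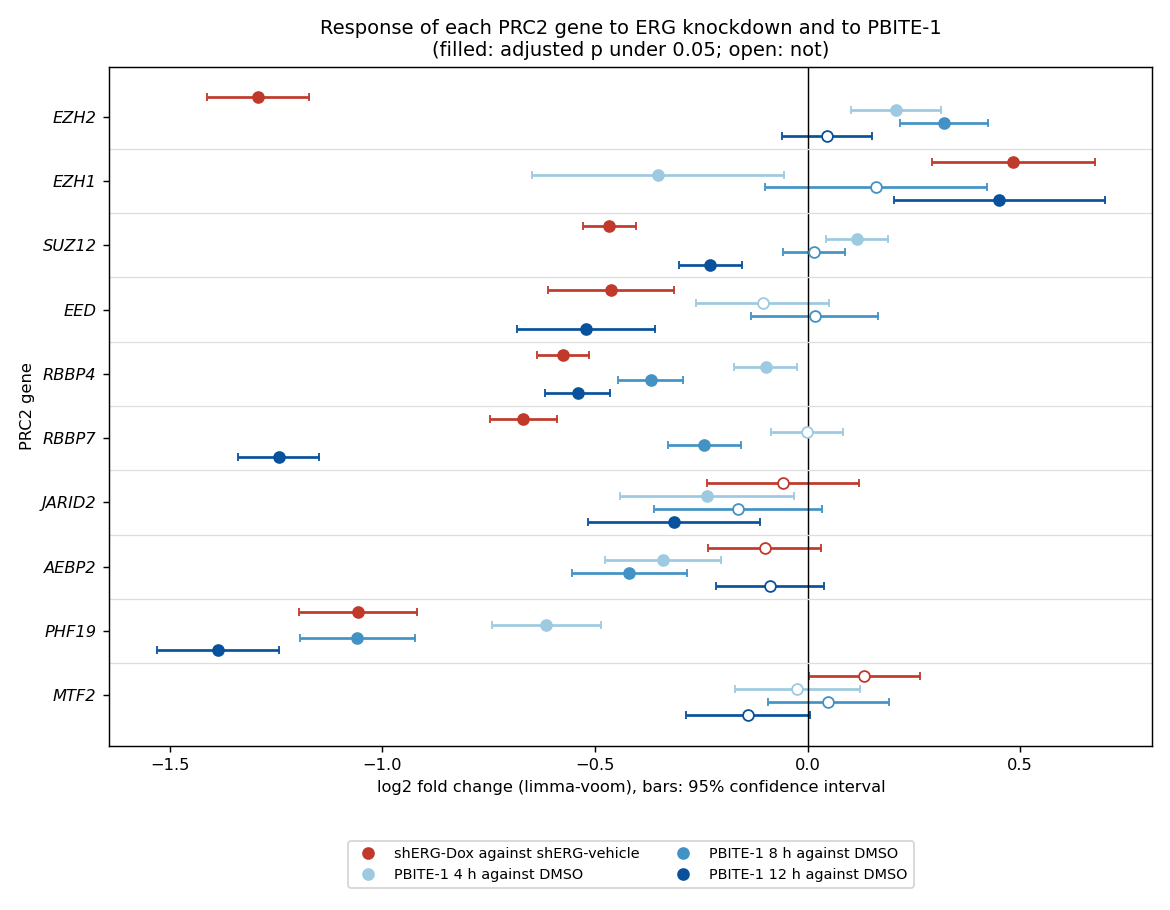
Log2 fold changes (x axis, limma-voom, bars are 95% confidence intervals) of the 10 PRC2 genes (y axis) after Dox in VCaP-shERG cells and after 4, 8, and 12 h of PBITE-1 in parental cells. Filled points passed an adjusted p of 0.05. EZH2 lies at -1.29 with Dox and at 0.04 at 12 h, while PHF19 lies left of 0 in all 4 comparisons.

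In counts over the 10 genes, PBITE-1 gave 5 lower and 2 higher at 4 h, 4 lower and 1 higher at 8 h, and 6 lower and 1 higher at 12 h. Over all genes, 24.7% were lower and 26.4% higher at 4 h, 37.0% and 35.9% at 8 h, and 39.4% and 39.4% at 12 h. Below a log2 fold change of -1 were PHF19 at 8 h, against 8.86% of all genes, and PHF19 and RBBP7 at 12 h, against 15.4%. The median over the members was -0.10, -0.07, and -0.27, and that over all genes was -0.01, -0.02, and -0.01. From 4 to 12 h, 6 members fell and 2, EZH1 and AEBP2, rose, against 35.0% of all genes in each direction. Between the responses to PBITE-1 at 12 h and to Dox, 3 members were lower under PBITE-1 (RBBP7, PHF19, and MTF2) and 2 were higher (EZH2 and SUZ12), against 35.1% and 33.3% of all genes. With scaling by library size only, the median of all genes after Dox moved to 0.28. Relative to that median, EZH2 was at -1.31, PHF19 at -1.08, and EZH1 at 0.47.

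EZH2 and several other members are commonly counted among E2F targets, genes that rise when cells replicate DNA. All 16 E2F and DNA replication genes fell with Dox, against 35.3% of all genes, and the median of their log2 fold changes was -1.61. At 12 h of PBITE-1, 15 of the 16 fell, against 39.4% of all genes, with a median of -1.94, while EZH2 was at 0.04. UHRF1, which maintains DNA methylation, went from 119 ± 3.6 CPM with DMSO to 9.96 ± 0.84 CPM at 12 h, and MCM5, of the replicative helicase, from 85.9 ± 3.4 to 13.2 ± 0.18 CPM. CDC6, which loads that helicase, was the 1 gene of the 16 that did not pass at 12 h (158 ± 4.6 CPM with DMSO, 163 ± 15 CPM at 12 h, adjusted p = 0.10, limma-voom). At 4 h, 8 fell and 2 rose (median -0.14), and at 8 h, 12 fell and 4 rose (median -0.53). Over all genes, 24.7% fell and 26.4% rose at 4 h, and 37.0% fell and 35.9% rose at 8 h. CDC6 was among those of the 16 that rose at both times, by 0.39 and 0.53 on the log2 scale.

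**Figure D4:**
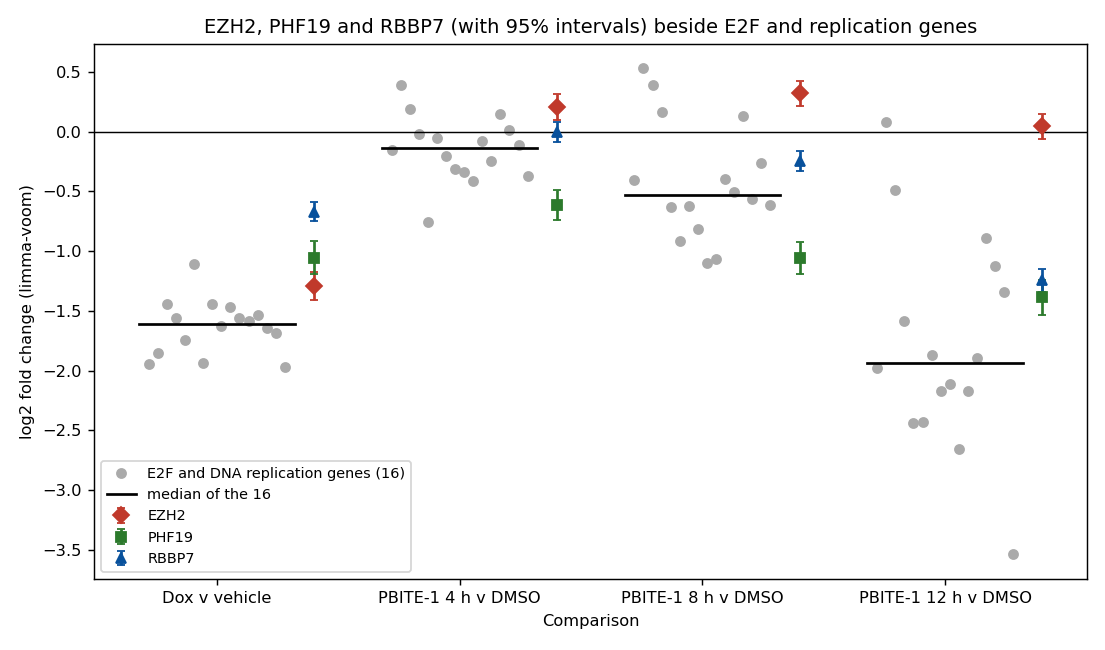
Log2 fold changes (y axis, limma-voom) of 16 E2F and DNA replication genes (grey points, black line at their median) and of EZH2, PHF19, and RBBP7 with 95% confidence intervals, in 4 comparisons (x axis). At 12 h the median of the 16 genes is -1.94, with EZH2 at 0.04 and RBBP7 at -1.24.

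The genes whose pattern was most like that of EZH2 were CDC6, NCAPG, MELK, SNX5, and ODC1, with Pearson's r from 0.989 to 0.996 over the 18 libraries, among 11308 genes. The measure was log2 CPM minus the mean of the control group of the same experiment, so the libraries share those controls. The 3 Dox libraries lie far from the rest and carry much of this likeness. Within the 12 parental libraries, r of these genes with EZH2 was between 0.798 and 0.93. The genes were chosen by r over libraries that include these 12, so the parental r is no independent check. NCAPG is a condensin subunit, MELK a mitotic kinase, SNX5 a sorting nexin, and ODC1 the first enzyme of polyamine synthesis. Of the other PRC2 genes, SUZ12 was closest to EZH2 (r = 0.846 over the 18 libraries, 0.532 in the parental ones), and EZH1 was farthest over the 18 (r = -0.581, and -0.275 in the parental ones). In the parental libraries alone, AEBP2 was farthest (r = -0.894).

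Of 5 further PRC2 accessory genes, 4 were tested. With Dox, EPOP, an elongin-binding subunit, fell from 8.25 ± 0.80 to 3.39 ± 0.88 CPM (log2 fold change -1.31, adjusted p = 1.3e-06), while PHF1, the remaining Polycomb-like gene, rose by 0.37 (adjusted p = 0.0026) and LCOR by 0.15 (adjusted p = 0.0012, limma-voom). With PBITE-1, 3 of the 4 rose at 4 h, and all 4 at 8 and 12 h, where the medians were 1.10 and 1.14. Over all genes, 26.4% rose at 4 h, 35.9% at 8 h, and 39.4% at 12 h. With 4 genes these counts say little about the list. EPOP went from 5.25 ± 1.0 CPM with DMSO to 14.4 ± 3.5 CPM at 4 h and 13.8 ± 1.3 CPM at 12 h. SKIDA1 went from 1.94 ± 0.25 to 9.15 ± 1.1 CPM at 12 h.

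PRC1, the complex that binds the mark PRC2 makes and ubiquitinates histone H2A, was mixed in direction. Of its 23 genes, 9 fell and 10 rose with Dox (median 0.01), and 11 fell and 6 rose at 12 h of PBITE-1 (median -0.15), with 10 and 4 at 4 h and 12 and 6 at 8 h. Over all genes, 35.3% fell and 35.1% rose with Dox, so the PRC1 counts with Dox were near the background. The shares of all genes that fell and rose were 24.7% and 26.4% at 4 h, 37.0% and 35.9% at 8 h, and 39.4% and 39.4% at 12 h. CBX2, a chromodomain subunit, fell with Dox from 51.7 ± 2.4 to 21.7 ± 1.5 CPM, and at 4 h from 40.0 ± 3.9 to 18.2 ± 1.5 CPM. BCORL1, of the variant PRC1, rose with Dox (log2 fold change 1.37, SE 0.10, adjusted p = 1.6e-12) and at 12 h (1.60, SE 0.10, adjusted p = 6.9e-17, limma-voom).

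The list of H3K27 demethylase and PR-DUB genes held 6, of which 5 were tested. With Dox 3 rose and 1 fell (median 0.21), and at 12 h of PBITE-1 3 rose and 1 fell (median 0.59). Over all genes, 35.1% rose and 35.3% fell with Dox, and 39.4% rose and 39.4% fell at 12 h. With 5 genes these counts say little about the list. KDM6B, an H3K27 demethylase, went from 20.4 ± 2.8 CPM with DMSO to 17.1 ± 1.4 CPM at 4 h, 35.1 ± 2.2 CPM at 8 h, and 51.4 ± 0.89 CPM at 12 h (log2 fold change 1.38, SE 0.08, adjusted p = 2.5e-18, limma-voom). KDM6A, its X-linked relative, rose by 0.41 with Dox (adjusted p = 4.9e-07) and by 0.64 at 12 h (adjusted p = 2.9e-13, limma-voom). ASXL1, a PR-DUB subunit, fell by 0.22 with Dox (adjusted p = 4.7e-06) and by 0.34 at 12 h (adjusted p = 4.0e-10, limma-voom).

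RBBP4 and RBBP7 also serve in NuRD, SIN3, and the histone chaperone CAF-1. Of 20 genes of these and related complexes, 13 fell and 6 rose with Dox (median -0.41). At 12 h of PBITE-1, 16 fell and 3 rose (median -0.59). Over all genes, 35.3% fell and 35.1% rose with Dox, and 39.4% fell and 39.4% rose at 12 h. CHAF1A, the large subunit of CAF-1, fell with Dox from 60.3 ± 4.4 to 28.9 ± 0.94 CPM, and at 12 h from 68.9 ± 2.6 to 21.8 ± 1.5 CPM. CHD3, a NuRD remodeller, fell at 12 h from 350 ± 8.5 to 111 ± 2.9 CPM. GATAD2B, also of NuRD, rose at 12 h by 0.66 (SE 0.04, adjusted p = 2.4e-16, limma-voom).

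Of 14 genes known to be silenced by EZH2 in various cell types, 13 were tested. With Dox 8 rose and 0 fell at an adjusted p under 0.05 (limma-voom), and at 12 h of PBITE-1 9 rose and 3 fell, with 8 and 2 at 4 h and 10 and 2 at 8 h. Over all genes, 35.1% rose and 35.3% fell with Dox, and 39.4% rose and 39.4% fell at 12 h. At 4 h 26.4% rose and 24.7% fell, and at 8 h 35.9% and 37.0%. In 5 of the 13, KLF2 and CDKN1C among them, the mean count was below 10 in both control groups. These 5 could enter the test only through groups where they are high, so the counts of genes that rose carry no weight of their own. The same holds for the rises of KLF2 and CDKN1C given below. TIMP2, an inhibitor of metalloproteinases, rose with Dox from 12.1 ± 1.3 to 45.9 ± 0.54 CPM, and VASH1, an angiogenesis inhibitor, from 6.40 ± 0.53 to 12.9 ± 0.54 CPM. KLF2, a zinc finger factor, had 10, 7, and 2 counts with DMSO and 301, 320, and 348 counts at 4 h. CDKN1C, a cell cycle inhibitor, had 1, 9, and 5 counts with DMSO and 974, 824, and 977 counts at 12 h. With vehicle it had 11, 5, and 4 counts, and with Dox 52, 79, and 66 counts. CDKN2A, another such inhibitor and a classic Polycomb target, fell at 12 h from 5.94 ± 1.2 to 1.98 ± 0.45 CPM (log2 fold change -1.55, SE 0.25, adjusted p = 9.0e-07, limma-voom). It was 1 of the 3 genes of this list that fell at 12 h, while 9 rose, so its fall does not stand for the list.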

How the data were processed

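RNA-seq was made from rRNA-depleted total RNA of 18 VCaP libraries. The deposited file holds counts per Ensembl gene as whole numbers, not normalized by the authors, for 22034 genes, of which 22011 had a symbol. The study's methods name Kallisto, edgeR, and limma-voom, whereas the submitters' processing notes name STAR, featureCounts, and hg38. Which made the counts is not known. The use of strand is not given in the sources used here.

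Genes were kept by filterByExpr over the 6 groups (14164 genes). Counts were scaled by TMM and tested by limma-voom (R 4.3.3, edgeR 4.0.16, limma 3.58.1) with Benjamini-Hochberg adjustment over all tested genes. A gene passed at an adjusted p under 0.05. The 6 VCaP-shERG and 12 parental libraries were fitted separately, and 18 libraries together for the difference of responses. CPM use TMM over the 18 libraries. Lengths and gene positions are from GENCODE 29 on GRCh38. The procedure was tested on simulated data.

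The members and lists were chosen with earlier results of these data known. Beside all members and ERG, at most 2 lower and 2 higher genes per list and comparison (largest change, mean count of at least 50) were eligible to be named, and the 5 genes most like EZH2. A gene eligible by this rule is not reported here. Genes that overlap or copy a member, CDKN1C with Dox, and CDC6 at 12 h are named outside that rule. The study states biological replicates, and for PBITE-1 their number. The sources used here do not describe the VCaP-shERG cultures further. Replicates differed beyond counting noise (chi-square per degree of freedom 1.70 to 5.04), and no library was left out. Results were also computed with DESeq2 1.42.0, the quasi-likelihood test of edgeR, other scalings and filters, other sample sets, the replicate block, and leaving out each library.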

Additional observations from a re-analysis of the deposited data

Results flagged for a closer look

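For 13 results the difference between 2 responses was itself past the threshold (limma-voom, adjusted p under 0.05). Between 4 and 12 h of PBITE-1, the change on the log2 scale was -0.16 for EZH2, 0.80 for EZH1, -0.35 for SUZ12, -0.42 for EED, -0.44 for RBBP4, -1.24 for RBBP7, 0.25 for AEBP2, and -0.77 for PHF19. Between the response to PBITE-1 at 12 h and that to Dox, coded as PBITE-1 minus Dox, the difference was 1.30 for EZH2, 0.20 for SUZ12, -0.62 for RBBP7, -0.37 for PHF19, and -0.32 for MTF2. The SUZ12 difference lost the threshold with upper-quartile scaling (0.07, adjusted p = 0.18) and turned negative with library size only (-0.06). Groups of 3 libraries were not tested for single outlying libraries.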

How the results depend on the processing

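Counts of members and of all genes were mostly within 1.5 times of those reported. After Dox, the members higher were 4 with library size only, 2 with upper-quartile scaling, and 2 with at least 10 counts in every sample, and 3184 genes were lower with library size only. At 4 h, 3 members were lower with no filter on low counts, and 1 was higher with library size only. For the PBITE-1 response minus the Dox response, 7 members were lower and 1 higher with library size only, and 5 and 1 with upper-quartile scaling.

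Leaving out 1 library gave 1 to 2 members higher with Dox, 2 to 5 lower and 1 to 2 higher at 4 h, 4 to 5 lower at 8 h, 5 to 7 lower at 12 h, and 3 to 4 lower in the difference of responses. The sign turned without 1 library only for log2 differences that had not passed. In the difference of responses these ranged from -0.075 to 0.025 for AEBP2, from -0.16 to 0.021 for EZH1, and from -0.024 to 0.016 for RBBP4. At 4 h they ranged from -0.071 to 0.057 for MTF2 and from -0.028 to 0.024 for RBBP7, and at 8 h from -0.047 to 0.081 for EED and from -0.00045 to 0.032 for SUZ12. EZH2 at 12 h ranged from -0.011 to 0.083, and JARID2 from 4 to 12 h ranged from -0.12 to 0.0044.

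Library size only turned AEBP2 (0.16) and JARID2 (0.20) with Dox, EED (-0.050), MTF2 (-0.018), and SUZ12 (-0.050) at 8 h, and SUZ12 in the difference of responses (-0.064). Upper-quartile scaling turned AEBP2 (0.061) and JARID2 (0.10) with Dox, and EED (-0.010) and SUZ12 (-0.011) at 8 h. A single fit of 18 libraries turned EED (-0.010) and SUZ12 (-0.011) at 8 h. RBBP7 at 4 h turned with DESeq2 (0.0036), RLE scaling (0.0040), and at least 10 counts in every sample (0.011). RBBP4 in the difference of responses turned with DESeq2 (0.011), RLE scaling (0.012), no filter (0.0025), and only the groups compared (0.0079). The cause was not tested.

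Same-numbered libraries did not deviate together (r from -0.023 to 0.037), so the numbers were not taken as a pairing. The replicate block changed 1 member call: JARID2 passed in the difference of responses (-0.30, adjusted p = 0.047). In the main fit that difference was -0.30 (adjusted p = 0.051, limma-voom). It also passed with upper-quartile scaling (-0.42, adjusted p = 0.0061), library size only (-0.56, adjusted p = 0.00043), and at least 10 counts in every sample (-0.32, adjusted p = 0.038). In 5 fits that left out a library it passed too (-0.40 to -0.30, adjusted p = 0.0068 to 0.048, limma-voom).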
